A study of Homo sapiens with 6 samples.

Results

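Places were examined where the MeTDiff peak list holds peaks on both strands of the same DNA. A peak, 1 row of the list, was taken when at least 1 base of its blocks lay in a block of a peak of another Ensembl gene ID on the opposite strand. This held for 1319 of 18431 peaks (7.16%, 95% Wilson interval 6.79 to 7.54, counting error only), on 1071 of 8386 IDs. They form 699 overlapping pairs of peaks between 559 pairs of IDs, and 664 of the peaks were on the plus strand and 655 on the minus strand. The peaks come from an RNA immunoprecipitation for N1-methylguanosine (m1G) in PANC-1, a long-established cell line from a human pancreatic carcinoma of the duct, reverse-transfected with siRNAs. The design had 2 m1G precipitates and 1 input from TRMT5-depleted cells (4 days of depletion) and 2 m1G precipitates and 1 input from control cells labelled WT control. Fragmented polyA+ RNA was used, precipitated with an antibody against m1G except in the inputs, and the labels do not say whether replicates were separate cultures. The list is of the whole series and marks neither condition nor library, so depleted and control cells were not compared and no value has a replicate error. Read depth is unknown.

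m1G is a guanine methylated on the base-pairing edge, best known next to the anticodon of tRNAs, where TRMT5 places it. Many human genes share DNA with a gene of the other strand. Such genes can diverge from neighbouring starts (head to head), converge at their ends (tail to tail), or lie one inside the span of the other (nested), and long noncoding RNAs (lncRNAs) read antisense to protein-coding genes are a common form. Only a protocol that keeps strand can say which of the RNAs a read came from. Whether the authors' library and counting kept strand is not given in the sources used here. Without strand, reads of a gene and of its antisense partner cannot be told apart, and the folds below are given with that limit.

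Sequences show what both peaks of a pair have in common. RefSeq promoter windows were used (GRCh38.p14, 250 bases before to 50 bases after a gene start, written 5′ to 3′ on the strand of the named gene). They held 50 or more shared bases for 45 of the 699 pairs. With only the window of most shared bases kept for each pair, the windows were on 44 genes. Shown are the 3 windows of head-to-head pairs with most shared bases, followed by 4 windows of pairs whose folds are described further down. Capitals mark the bases that lie in a peak of both strands. NEU4, a sialidase gene, lies at chr2:241808943-241809242 on the plus strand, GPS1, a subunit gene of the COP9 signalosome, at chr17:82050682-82050981 on the plus strand, and LOC105374114, a partner of the mitochondrial ribosomal protein gene MRPL3, at chr3:131502659-131502958 on the plus strand.
NEU4: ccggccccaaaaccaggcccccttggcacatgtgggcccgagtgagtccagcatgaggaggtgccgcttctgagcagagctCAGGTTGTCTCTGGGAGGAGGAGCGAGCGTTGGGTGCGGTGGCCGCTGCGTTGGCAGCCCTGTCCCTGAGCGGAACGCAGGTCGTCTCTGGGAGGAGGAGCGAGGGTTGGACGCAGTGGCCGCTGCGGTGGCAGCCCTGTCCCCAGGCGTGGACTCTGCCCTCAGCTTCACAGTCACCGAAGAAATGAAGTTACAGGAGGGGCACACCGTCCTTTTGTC
GPS1: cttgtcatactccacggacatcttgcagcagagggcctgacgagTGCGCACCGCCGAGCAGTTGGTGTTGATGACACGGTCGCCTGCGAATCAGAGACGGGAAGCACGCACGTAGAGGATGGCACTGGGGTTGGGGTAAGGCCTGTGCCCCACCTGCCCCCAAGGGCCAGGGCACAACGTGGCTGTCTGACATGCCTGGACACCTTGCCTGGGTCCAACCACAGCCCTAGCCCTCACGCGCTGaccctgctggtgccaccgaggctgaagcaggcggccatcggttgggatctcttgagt
LOC105374114: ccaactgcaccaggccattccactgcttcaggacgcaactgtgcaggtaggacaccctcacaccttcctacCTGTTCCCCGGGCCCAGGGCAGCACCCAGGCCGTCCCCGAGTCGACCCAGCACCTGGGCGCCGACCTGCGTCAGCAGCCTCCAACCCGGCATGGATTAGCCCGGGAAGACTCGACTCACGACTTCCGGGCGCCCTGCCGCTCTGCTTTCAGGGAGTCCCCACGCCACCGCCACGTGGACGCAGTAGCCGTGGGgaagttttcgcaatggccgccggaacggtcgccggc
The windows of the pairs described below are ARL6IP4 at chr12:122980588-122980887 (plus strand), DNASE1L1 at chrX:154412052-154412351 (minus strand), FBXO44 at chr1:11654157-11654456 (plus strand) and LIPT2 at chr11:74493675-74493974 (minus strand). The start used for the ARL6IP4 window lies inside its gene span, not at the 5′ end of the span.
ARL6IP4: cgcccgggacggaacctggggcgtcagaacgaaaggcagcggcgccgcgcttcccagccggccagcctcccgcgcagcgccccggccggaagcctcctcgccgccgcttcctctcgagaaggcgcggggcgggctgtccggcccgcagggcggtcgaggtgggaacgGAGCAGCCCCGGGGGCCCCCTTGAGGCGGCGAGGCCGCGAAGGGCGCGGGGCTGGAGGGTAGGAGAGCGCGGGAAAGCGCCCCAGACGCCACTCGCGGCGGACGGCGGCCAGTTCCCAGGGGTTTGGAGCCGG
DNASE1L1: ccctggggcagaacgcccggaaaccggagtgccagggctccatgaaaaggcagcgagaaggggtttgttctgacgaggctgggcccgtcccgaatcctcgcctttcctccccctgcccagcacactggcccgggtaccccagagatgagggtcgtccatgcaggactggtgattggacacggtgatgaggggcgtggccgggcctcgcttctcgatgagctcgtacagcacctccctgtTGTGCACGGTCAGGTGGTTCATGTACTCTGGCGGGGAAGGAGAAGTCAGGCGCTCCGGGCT
FBXO44: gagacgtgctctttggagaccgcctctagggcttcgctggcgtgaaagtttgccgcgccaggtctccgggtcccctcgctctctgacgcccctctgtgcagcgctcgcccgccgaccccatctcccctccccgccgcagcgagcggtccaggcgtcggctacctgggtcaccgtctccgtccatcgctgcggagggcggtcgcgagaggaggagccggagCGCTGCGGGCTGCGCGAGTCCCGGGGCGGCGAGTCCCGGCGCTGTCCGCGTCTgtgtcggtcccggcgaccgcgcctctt
LIPT2: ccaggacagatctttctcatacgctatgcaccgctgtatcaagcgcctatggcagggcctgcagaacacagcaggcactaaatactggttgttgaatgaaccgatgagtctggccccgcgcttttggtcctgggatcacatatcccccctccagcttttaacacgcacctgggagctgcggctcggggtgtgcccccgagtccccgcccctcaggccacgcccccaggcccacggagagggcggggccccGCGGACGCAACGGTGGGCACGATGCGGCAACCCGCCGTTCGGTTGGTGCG
The GC content of the shared bases in these 7 windows lay between 62.3% (DNASE1L1) and 81.1% (FBXO44), and G alone made up between 30.1% (LOC105374114) and 46.6% (ARL6IP4) of them. Over all 49 windows with 50 or more shared bases, of either gene of a pair, the median GC content was 68.7% (quartiles 64.3 to 75.7). It was 71.0% (65.3 to 75.7) in 610 windows with 50 or more bases of other peaks of their gene, and 58.7% (47.0 to 68.0) in all 35116 windows. The GC box (GGGCGG, either strand) was in 37 of the 49 windows (75.5%), in 83.6% of the windows with other peaks and in 45.0% of all windows. The CCAAT box (CCAAT) was in 10 (20.4%), against 29.2% and 34.6%, and the TATA box (TATAAA) in 0, against 1.48% and 11.5%. The ETS core (CCGGAAG) was in 7 (14.3%), against 19.0% and 10.3%, and the NRF1 core (TGCGCA) in 4 (8.16%), against 13.8% and 8.24%. All motifs were searched on both strands, and a match is a description of letters only.

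Where peaks of opposite strands met, most of the shorter peak was usually shared. The median pair shared 100 bp (quartiles 84 to 150, range 2 to 399). The median share was 91.9% of the shorter peak and 62.5% (quartiles 35.4 to 79.4) of the bases of both peaks together. In 193 pairs the shorter peak was wholly shared, while only 1 pair had identical blocks. Slight contacts were few, with 5 pairs sharing under 10 bp, and the pair sharing the fewest, 2 bp, was ARHGAP27 with an unnamed ID. Just outside the rule, the nearest peaks of opposite strands without a shared base were 21 bp apart, and 454 such pairs lay under 500 bp apart. Most peaks (1243) were in 1 pair, 73 were in 2 and 3 were in 3.

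The longest overlaps reached 399 bp. One was on chromosome 12 (122980746 to 122981144), between unnamed IDs (those given no gene by position), with folds of 38.7 on the plus strand and 37.5 on the minus strand. The other was on chromosome 19 (45765332 to 45765730), also between unnamed IDs, with folds of 6.60 and 5.40. ZNF446, a zinc finger gene, shared 397 bp with an unnamed ID (folds 4.50 and 3.0), and DPH1, a gene of diphthamide synthesis, shared 389 bp (7.83 and 8.75). Behind them came the lncRNA HEIH with 370 bp (3.58 for HEIH and 3.70 for its partner) and C1orf122 with YRDC, which encodes an enzyme of tRNA threonylcarbamoyl modification, with 367 bp (7.50 and 8.17). D2HGDH, a dehydrogenase of 2-hydroxyglutarate, shared 362 bp with an unnamed ID (17.0 and 12.3). DIPK1B shared 351 bp (5.00 and 4.67) with an ID that was named LOC124900276 by position only. That name was not checked against the Ensembl annotation of the ID. The connexin gene GJD3 shared 350 bp with GJD3-AS1 (6.0 for GJD3 and 4.75 for the antisense gene). The last of the 10 longest, at 348 bp in 2 stretches on chromosome 1 (43451202 to 43451652), joined unnamed IDs with folds of 7.89 and 8.33. Of these 10 pairs, ZNF446 had the most unequal folds (1.5 times), then D2HGDH, and GJD3 was next at 1.26 times.

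The fold enrichment of both peaks of a pair was nearly the same. Every fold is the authors' deposited ratio of precipitate over input for that peak. The larger fold was a median 1.14 times the smaller (quartiles 1.06 to 1.33), 468 of 699 pairs (67.0%) were within 1.25 times, and 60 (8.58%) had equal folds. The plus-strand fold was higher in 322 pairs and the minus-strand fold in 317. Spearman's rho between the folds was 0.81 over 699 pairs, a description only, since both peaks share bases and libraries.

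**Figure D1:**
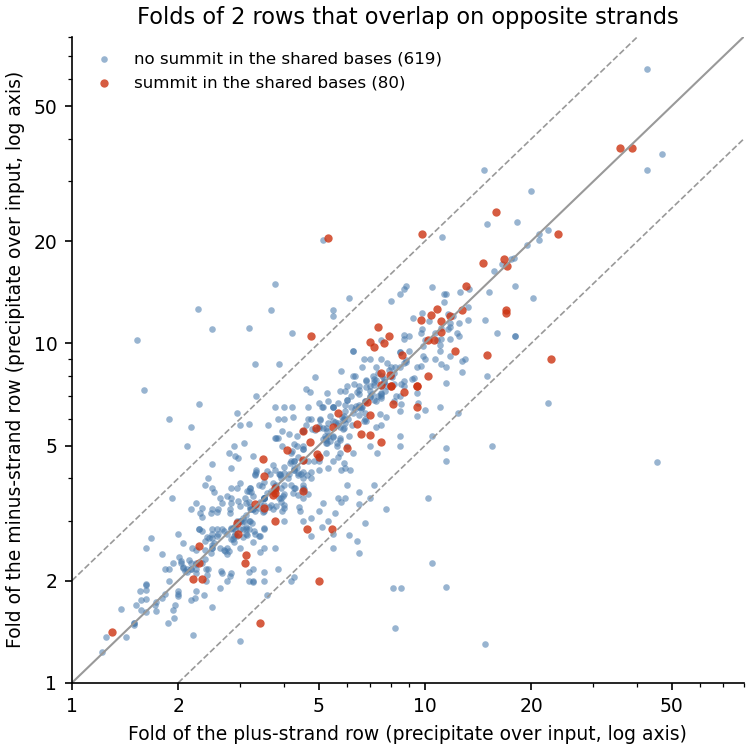
Deposited fold of the plus-strand peak (x) against that of the minus-strand peak (y), both on log axes, for 699 overlapping pairs, 1 point each; red points have a MACS2 summit in the shared bases (80 pairs), the solid line marks equal folds and the dashed lines a 2-fold difference. Most points follow the line of equal folds, and 48 pairs lie beyond the dashed lines.

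This likeness went with the bases held in common, on opposite strands as on the same strand. Of 759 pairs of peaks of different IDs that overlap on the same strand, 231 were combinations of 22 peaks at 1 place of chromosome 5 (141512226 to 141512336). Without that place, as chosen after seeing the data, the larger fold was a median 1.14 times the smaller over 528 pairs (quartiles 1.05 to 1.38), with a rho of 0.81. With it the median was 1.13 times and rho 0.75. For the 454 pairs of opposite strands that lay under 500 bp apart without a shared base, the median was 1.74 times (1.33 to 2.84) and rho was 0.09. Consecutive peaks of 1 ID gave 1.77 times (1.31 to 2.7) and a rho of 0.10 over 10045 pairs. Peaks of 1 ID that overlap each other were not removed from these consecutive pairs. Among the opposite-strand pairs, the median was 1.33 times where up to 25% of the joint bases were shared (105 pairs), 1.21 from there to 50% (174 pairs), 1.14 to 75% (209 pairs), 1.11 to 90% (128 pairs) and 1.04 above 90% (83 pairs). In the same steps the same-strand pairs without that place gave 1.37, 1.25, 1.10, 1.14 and 1.06. Differences over 2 times occurred in 48 of 699 opposite-strand pairs (6.87%, interval 5.22 to 8.99), 45 of 528 same-strand pairs without that place (8.52%, 6.43 to 11.2) and 4128 of 10045 consecutive pairs (41.1%, 40.1 to 42.1). The part that strand in the authors' counting had in this likeness was not tested.

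**Figure D2:**
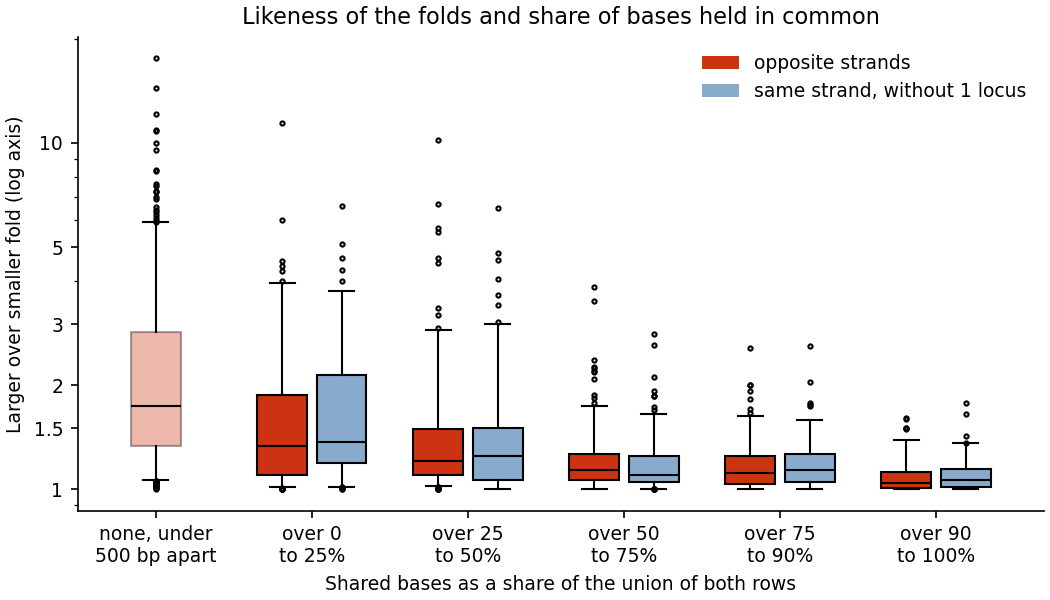
Larger over smaller deposited fold of a pair (log axis) by the share of the joint bases that both peaks hold, for opposite-strand pairs (red) and 528 same-strand pairs of different IDs (blue, without the chromosome 5 place of 231 pairs); the pale box holds opposite-strand pairs under 500 bp apart without shared bases, boxes are quartiles with the median, whiskers reach the 5th and 95th percentiles, and points are pairs beyond them. The median ratio of opposite-strand pairs is 1.33 with up to 25% shared and 1.04 above 90%, against 1.74 without shared bases.

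MELTF, which encodes the iron-binding protein melanotransferrin, led the pairs with high folds in both peaks. Its minus-strand peak had 64.5-fold and a spliced peak of an unnamed plus-strand ID 42.5-fold (135 bp shared in 2 stretches, chromosome 3, 197002906 to 197003198). Reads of the 2 peaks of a pair may be the same where strand was not kept. The chromosome 12 pair with folds of 38.7 and 37.5 was next, and the same minus-strand peak also overlapped ARL6IP4, a nuclear speckle protein gene, at 35.8-fold over 299 bp. SLC52A2, a riboflavin transporter gene, had 47.0-fold against 36.1-fold in its unnamed partner (199 bp shared). EVA1B, inside the span of SH3D21, had 32.3-fold against 42.6-fold in SH3D21 (129 bp). FCHSD1, a gene of a membrane-bending F-BAR protein, and RELL2, tail to tail, had 21.6-fold and 22.3-fold (159 bp). MGAT2, an enzyme gene of N-glycan branching, had 23.8-fold against 21.0-fold in its partner (348 bp). NOXO1, an organizer of NADPH oxidase, and TBL3, a ribosome biogenesis gene that contains it on the other strand, both had 21.0-fold over 98 bp. ZNF839 had 21.1-fold against 20.2-fold in an unnamed ID (148 bp), and LRRC59, a gene of the endoplasmic reticulum membrane, 28.1-fold against 20-fold in LRRC59-AS1 (135 bp). In these 10 pairs the larger fold was at most 1.52 times the smaller, and 2 of them had a peak in common.

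A minority of pairs broke the pattern. In 48 pairs the folds were over 2 times apart, with a median of 10.2 for the higher and 2.95 for the lower fold. These pairs shared less, a median 25.7% of their joint bases (quartiles 16.5 to 32.7) against 64.7% (38.6 to 80.2) in the other 651 pairs. The peak of higher fold was the longer one in 37 of the 48 and the shorter one in 10, whereas in all 607 pairs of unequal length it was the longer one in 311 and the shorter one in 244. Of the 48 pairs, 39 had at least 1 spliced peak, and among all 699 pairs 236 had 1 spliced peak and 35 had 2. NDUFAF3, an assembly factor gene of respiratory complex I, had 14.8-fold and its unnamed partner 1.30-fold, with only 32 bp shared. TAFAZZIN, a gene of cardiolipin remodelling, had 45.5-fold in a peak of 549 bp, and DNASE1L1, a DNase family gene read head to head with it, 4.47-fold in a peak of 200 bp that was wholly shared. FBXO44 and FBXO2, adjacent genes of F-box substrate receptors of ubiquitin ligases, had 11.5-fold and 1.92-fold (53 bp shared). TYMS, the thymidylate synthase gene, had 8.24-fold and TYMSOS on its opposite strand 1.45-fold (100 bp). DMPK, the kinase gene of myotonic dystrophy, had 12.6-fold and DM1-AS 2.28-fold (95 bp), and on chromosome 19 (3544246 to 3544340) unnamed IDs had 10.2-fold on the minus strand and 1.53-fold on the plus strand.

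Both IDs had a gene name by position in 243 of the 559 pairs of IDs, 1 of them in 252 and neither in 64. By these names, 125 pairs joined 2 protein-coding genes and 112 a protein-coding gene and a lncRNA gene. The rest held a pseudogene (5 pairs) or 2 lncRNA genes (1 pair). Names and gene types were not checked against the Ensembl annotation of the IDs, so some pairs may be counted under a wrong type or arrangement. The genes were tail to tail in 95 pairs, head to head in 91 and nested in 50, and the RefSeq spans did not touch in 5 divergent and 2 convergent pairs. This order rests on the gene spans. With the ends of the peaks of each ID in their place, 103 pairs were nested, 76 head to head and 64 tail to tail. Protein-coding partners were on both sides in 65 of the 95 tail-to-tail pairs, 38 of the 91 head-to-head pairs and 18 of the 50 nested pairs. In 134 pairs of peaks of a protein-coding gene and a lncRNA, the coding fold was higher in 66, the lncRNA fold in 56, and 12 were equal, with medians of 4.87 and 4.50.

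**Figure D3:**
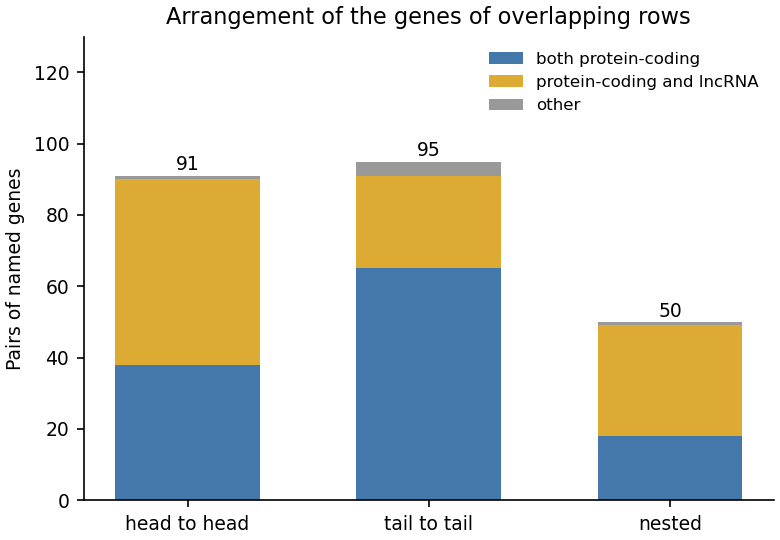
Number of pairs of named genes by arrangement of their gene spans (bars from 0), split into pairs of protein-coding genes, a protein-coding gene with a lncRNA gene, and other combinations. Tail-to-tail (95) and head-to-head (91) pairs outnumber nested pairs (50) by gene spans, whereas by the ends of the peaks nested pairs are the most frequent (103, against 76 head to head and 64 tail to tail), and pairs of coding genes are 65 of the tail-to-tail bar.

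Head-to-head pairs carried the shared bases near a gene start. Of their 101 pairs of peaks, 87 had the middle of the shared bases within 500 bp of a 5′ end of either gene and 41 within 500 bp of both. Gene spans of this arrangement overlap around their 5′ ends by definition, which favours such places, so these counts are a description. The median smaller fold was 4.50 (quartiles 3.22 to 7.25). Besides C1orf122 with YRDC and GJD3 with its antisense gene, the longest overlaps were MAPKAPK5, a stress-activated kinase gene, with MAPKAPK5-AS1 (326 bp, 8.83-fold and 14.8-fold), LIPT2, a gene of lipoate transfer, with LIPT2-AS1 (297 bp, 7.50-fold and 8.0-fold), LRP11 with RAET1E-AS1 (291 bp, 10.8-fold and 11.1-fold) and IRF2BPL with LOC107984638 (275 bp, 6.83-fold and 6.0-fold). LRP11 and RAET1E-AS1 overlapped in a further pair of peaks over 187 bp, with 12.0-fold and 11.8-fold. GPS1 and RFNG, whose shared bases are printed above, had 15.2-fold and 14.2-fold, NEU4 and LOC124905349 6.33-fold and 8.0-fold, and LOC105374114 and MRPL3 4.50-fold and 4.90-fold. Outside the rule for naming genes, and chosen after its values were seen, the vimentin gene VIM had 4.37-fold and VIM-AS1 4.15-fold (197 bp shared).

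Tail-to-tail pairs shared bases both near gene ends and farther inside the genes. Of 126 pairs of peaks, 57 had the middle of the shared bases within 500 bp of a 3′ end of either gene and 8 within 500 bp of both, and the median smaller fold was 3.28 (2.34 to 5.91). Here the gene spans overlap around their 3′ ends by definition. GNPTG, a subunit gene of the enzyme that tags lysosomal proteins, and UNKL both had 7.67-fold over 341 shared bp (chromosome 16, 1363614 to 1363954). CARM1, an arginine methyltransferase gene, and YIPF2 had 16.7-fold and 17.7-fold over 292 bp, with a summit of score 25.5 in the shared bases. SEMA4G, a semaphorin gene, and the mitochondrial ribosomal protein gene MRPL43 had 2.94-fold and 3.75-fold over 288 bp. PRXL2B and the metalloendopeptidase gene MMEL1 had 12.7-fold and 12.5-fold over 286 bp, and MTG1, a GTPase gene of mitochondrial ribosome assembly, and SPRN 7.0-fold and 6.17-fold over 281 bp. The folds were 1.13 times apart in MTG1 with SPRN and 1.28 times in SEMA4G with MRPL43, the most unequal of these pairs.

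In nested pairs the median smaller fold was 3.70 (2.82 to 6.91), and the inner gene had the higher fold in 32 of 60 pairs of peaks, the outer gene in 20, and 8 were equal. NUMA1, a spindle pole gene, and NUMA1-AS1 inside it overlapped over 299 bp with 4.52-fold in both peaks (chromosome 11, 72015088 to 72015386). A neighbouring pair of their peaks, over 298 bp (72014391 to 72014688), had 16.9-fold and 17.1-fold. Both folds were higher at the neighbouring place. SFT2D3, inside the polyadenylation factor gene WDR33, had 4.50-fold and WDR33 3.67-fold (251 bp). TSPYL1 had 4.08-fold and 3.28-fold in 2 peaks that overlapped 1 peak of DSE, a dermatan sulfate epimerase gene, at 3.50-fold (251 and 246 bp). JMJD1C, of the histone demethylase family, had 4.67-fold and JMJD1C-AS1 3.25-fold (250 bp). Chosen after their values were seen, RPL15, a ribosomal protein gene, had 7.25-fold and NKIRAS1 6.75-fold (94 bp).

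Among peaks of named IDs, those with an opposite-strand partner were more often near gene ends than other peaks. Named IDs held 866 of the 1319 peaks and 15543 of the 17112 other peaks. The naming itself could fail where peaks of both strands claimed a gene, so the groups were not reduced alike. Of 866 peaks of named IDs, 229 (26.4%, interval 23.6 to 29.5) had their middle within 500 bp of the 5′ end of their gene, against 17.5% of other peaks (16.9 to 18.1) and 17.9% of all. At the 3′ end there were 108 (12.5%, 10.4 to 14.8), against 6.56% of other peaks (6.18 to 6.96) and 6.87% of all. Genes that overlap only at their ends can meet the rule only there, so these shares are a description. With or without a named ID, spliced peaks were fewer, 269 of 1319 (20.4%, 18.3 to 22.7) against 34.0% of other peaks and 33.1% of all. The median fold was 4.67 (quartiles 3 to 7.44) against 4.17 (2.75 to 6.83), and folds of 10 or more were held by 176 peaks (13.3%, 11.6 to 15.3), near the 12.7% of all peaks. Peaks at the 5′ end had a median fold of 5.00 against 5.50 in other peaks there, at the 3′ end 4.31 against 3.75, and elsewhere 4.59 against 3.93. A false discovery rate of 0.01 or less was deposited for 1215 peaks (92.1%, 90.5 to 93.5) and for 89.1% of all peaks. By chromosome, the share of peaks with an opposite-strand partner was highest on chromosome 21, at 12.7% (26 of 205, interval 8.80 to 17.9). Of the 14 overlapping pairs of peaks there, 6 were of COL18A1 with 1 unnamed ID. The share was 11.1% on chromosome 16 (149 of 1345, 9.51 to 12.9) and 3.04% on chromosome 9 (25 of 823, 2.07 to 4.45). These chromosomes were named for their high or low shares, and the intervals treat the peaks of a pair as independent.

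Some gene pairs overlapped in several peaks, so that the folds of both peaks could be followed along the DNA. In 103 pairs of IDs there were 2 or more overlapping pairs of peaks, up to 6 for the collagen gene COL18A1 with an unnamed ID, where folds ran from 1.30 to 4.00 for COL18A1 and from 1.41 to 3.63 for its partner. HSPG2, the perlecan gene, overlapped LDLRAD2 tail to tail in 4 places of chromosome 1. From the first to the last by position, HSPG2 had folds of 9.17, 7.80, 3.38 and 3.38, where 3.38 is 1 peak, and LDLRAD2 had 11.8, 6.80, 2.83 and 2.25. Both folds were higher at the first 2 places than at the last 2. OPRL1, the nociceptin receptor gene, had 3.39, 7.50, 10.0 and 11.8, and an unnamed minus-strand ID 3.28, 9.0, 9.0 and 11.5. SQSTM1, which encodes the autophagy receptor p62, had 1.88, 6.79, 7.0 and 1.73 against 6.0, 7.43, 6.94 and 1.73 in an unnamed ID. Only the first of these places differed by over 2 times. MTMR3, a lipid phosphatase gene, had 8.17, 2.83, 2.86 and 3.12, and its unnamed partner 6.75, 2.83, 2.86 and 3.12, equal at the last 3 places. The glutamine transporter gene SLC1A5 had 9.45 and 2.02 at 2 places, against 8.50 and, in 2 alternative peaks, 2.21 and 2.33. In MTSS2, with 5 overlaps, the minus-strand folds were 2.62, 7.2, 5.78, 8.50 and 6.75, against 6.40, 6.40, 6.40, 8.50 and 6.75 in an unnamed plus-strand ID. The folds were 2.44 times apart at the first place and equal at the last 2. WDR83, a WD-repeat gene, had 5.33, 5.93, 5.93 and 2.2, against 4.30, 4.30, 6.33 and 1.38 in an unnamed ID. A fold that repeats within an ID can be 1 peak that overlapped several peaks of the other strand, so repeats need not be separate measurements. HEIH had 3.4 and 4.25 in 2 peaks at its first place, then 3.58 and 2.75, against 5.80, 3.70 and 2.90 in its partner. In a pair of unnamed IDs of chromosome 8, with 5 overlaps, folds lay between 2.39 and 12.6 on the plus strand and between 2.31 and 14.2 on the minus strand. These are all pairs of IDs with 4 or more overlapping pairs of peaks, a limit set after the values were seen.

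**Figure D4:**
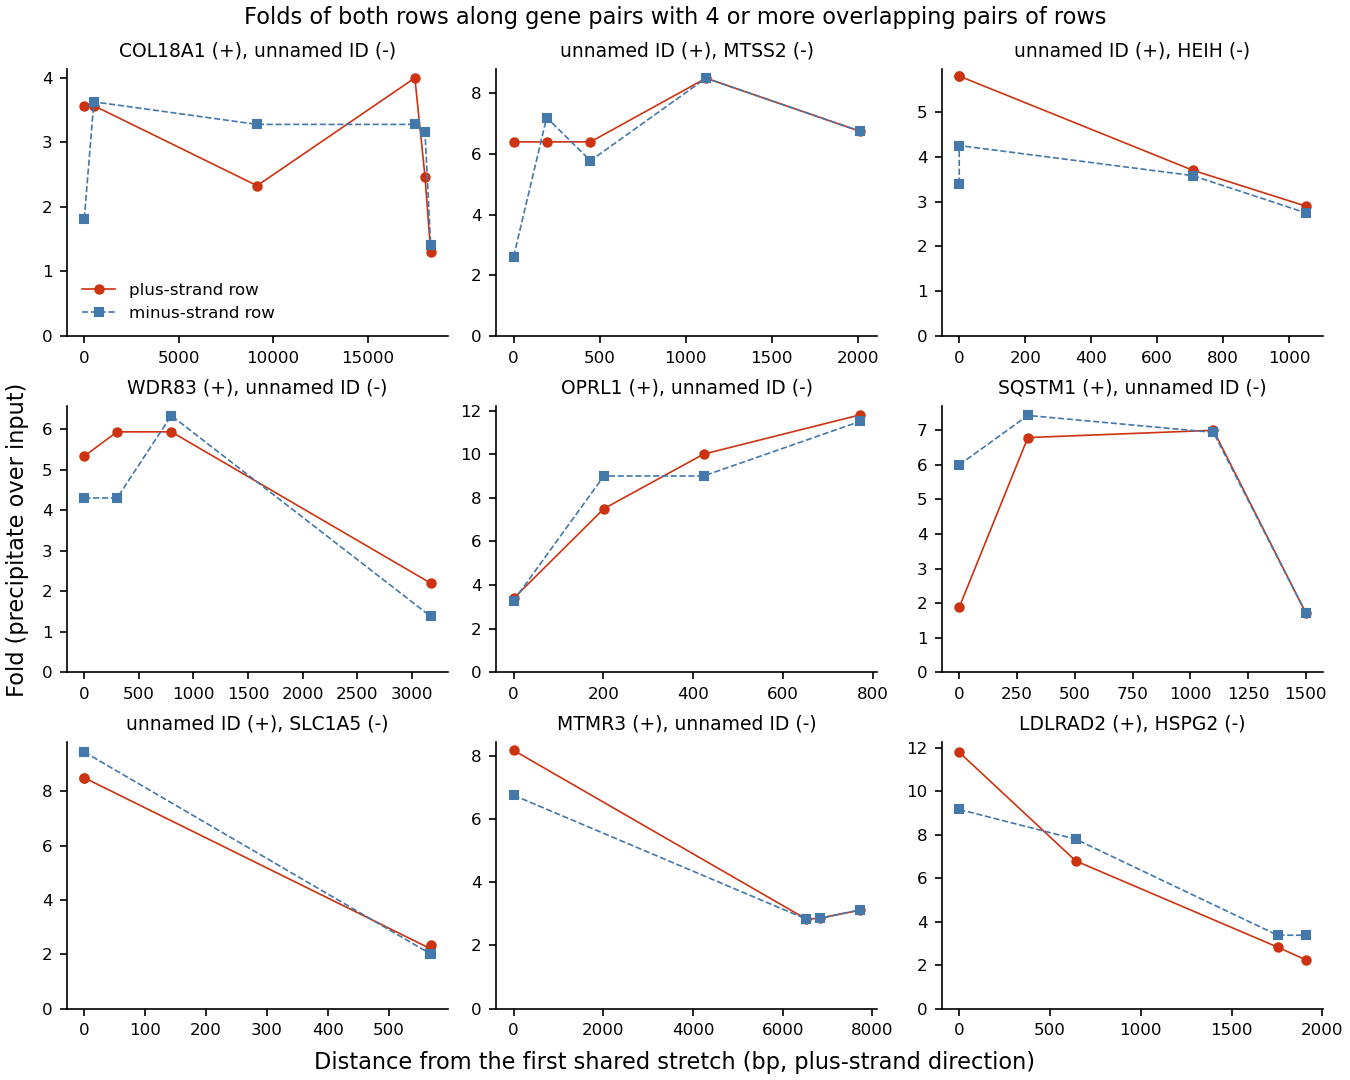
Deposited fold of the plus-strand peak (red circles) and minus-strand peak (blue squares) of each overlapping pair, from 0, against the distance in bp from the first shared stretch, for 9 pairs of IDs with 4 or more overlapping pairs of peaks and at least 1 gene name. In HSPG2 with LDLRAD2 both lines fall from left to right, in OPRL1 both rise, and in SQSTM1 the lines part at the first place only (1.88 and 6.0).

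MACS2 summits, called separately for the same series and listed without strand, gave a measure that the choice of peaks had not used. Of 1319 peaks, 231 held a summit in a block (17.5%, interval 15.6 to 19.7), against 12.0% of other peaks (11.5 to 12.5) and 12.4% of all peaks in the list. Within 100 bp of a block there was a summit for 436 (33.1%, 30.6 to 35.6), against 26.8% of other peaks and 27.3% of all. A summit in shared bases counts for both peaks of its pair. Counted once, 153 summits lay in 152 kb of these peaks (1.01 per kb) and 2056 in 2828 kb of the other peaks (0.727 per kb). Long peaks held summits more often in both groups, with 51.7% (interval 45.4 to 58.0) against 49.0% (47.0 to 51.0) above 250 bp, 23.2% (18.6 to 28.5) against 17.5% (16.2 to 18.9) over 170 and up to 250 bp, 7.44% (5.01 to 10.9) against 5.43% (4.76 to 6.19) over 120 and up to 170 bp and 4.23% (2.79 to 6.39) against 1.99% (1.70 to 2.32) up to 120 bp. The intervals did not overlap in the shortest class and overlapped in the other 3. They treat the peaks of a pair as independent, although a summit in shared bases counts for both, so they are too narrow to judge a class.

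Within these peaks, summits were no denser in the shared bases than in the bases of 1 strand alone. Of these 153 summits, 72 were in 82.7 kb of shared bases (0.871 per kb) and 81 in 68.9 kb of bases held by 1 strand alone (1.18 per kb), with median scores of 18.2 and 17.4. The other peaks of the list held 0.727 per kb, and these densities were not matched for peak length. The score is the −log10 value that MACS2 wrote per summit, of p or of q, and its median over all 6264 summits was 16.4. A summit lay in the shared bases of 80 pairs (11.4%, 9.29 to 14), in the remaining bases only of a further 95, and within 100 bp of the shared bases of 204 pairs (29.2%, 25.9 to 32.7). Pairs with a summit in the shared bases had more of them, a median 201 bp against 100 bp, and a higher smaller fold, 6.57 against 3.83, while the ratio of their folds was alike (1.16 and 1.14). Around the middle of the shared bases, the summit count per 100 bp was 52, 58, 57 and 61 within 200 bp on either side, then 18 in the next 100 bp on either side.

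**Figure D5:**
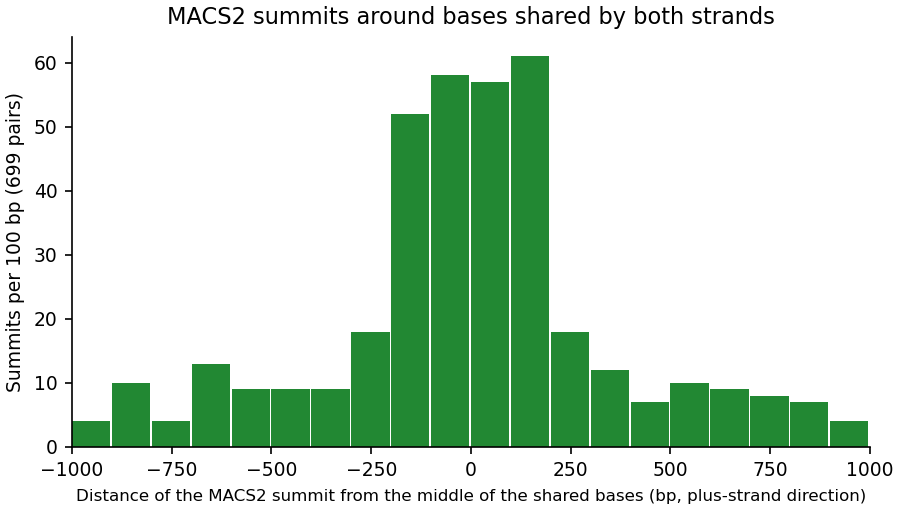
Number of MACS2 summits in steps of 100 bp by distance from the middle of the shared bases, in the plus-strand direction, over 699 pairs (a summit near 2 pairs counts for both). The 4 bars within 200 bp hold 52 to 61 summits each, and the bars beyond 300 bp hold 4 to 13.

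The highest summit in shared bases, with a score of 80.9 at 65856218 on chromosome 11, lay in CFL1, the cofilin gene of actin severing, where the CFL1 peak had 4.55-fold and that of an unnamed plus-strand ID 3.47-fold over 135 shared bp. MGAT2 had a summit of 65.9 at 49620851 on chromosome 14, in a peak of 9.81-fold against 21.0-fold in its partner. CDIPT, the phosphatidylinositol synthase gene, had one of 58.1 at 29863064 on chromosome 16, with 14.8-fold against 13.1-fold in an unnamed ID. The chromosome 12 peaks at ARL6IP4 held a summit of 53.4 at 122980932, and LRP11 with RAET1E-AS1 one of 51.6 at 149864308 on chromosome 6. The head-to-head, tail-to-tail and nested pairs had a summit in the shared bases in 11 of 101, 8 of 126 and 8 of 60 cases, with overlapping intervals (6.19 to 18.5%, 3.25 to 12.0% and 6.91 to 24.2%).

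TRMT5 and NES, the genes in the title of the study, had no peak that overlapped one of the other strand. An opposite-strand peak of SLC38A6 lay inside the TRMT5 span (chromosome 14, 60981214 to 60981314, 6.25-fold) and shared no base with the 3 peaks of TRMT5.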

How the data were processed

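Both deposited tables list peaks for the series as a whole, with neither sample nor condition. The MeTDiff list gives, per peak, the authors' p-value, the log10 of its false discovery rate and the fold, a ratio of precipitate over input (meanings read from column order and values). The MACS2 list holds, for each 1 bp summit, the authors' −log10 score (of p or of q). Per the submitters' processing notes, MACS2 2.2.5 and STAR 2.7.1 were among the tools, with bedtools, Picard and SAMtools, on GRCh38. How they were set, and whether strand was kept or libraries pooled, is not stated there.

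Overlaps were computed on blocks with Python 3.11.15, pandas 2.3.3 and SciPy 1.17.1 and checked on simulated rows. A peak's ID took the only RefSeq gene (GRCh38.p14) overlapping all its peaks and not known to lie on the other strand. Small RNA and read-through genes were left out, and strand was taken from the promoter table. Where that strand was missing and peaks of both strands claimed the gene, it was used only for an ID with 3 or more peaks against 1. A gene claimed by several IDs went to the ID with most peaks, and to none in a tie. Genes already given were then dropped, and an ID of several candidates that kept 1 took it. Some names thus rest on elimination. These steps named 711 of the 1071 IDs (92 without a RefSeq strand), and 224 had no candidate. No test was run, since the lists hold no samples. Named pairs were the 10 with most shared bases, the 10 with the largest smaller fold, the 6 with the largest ratio of folds, the 6 with the highest summit in the shared bases, and the 6 with most shared bases of each arrangement, with exceptions stated. The members and lists were chosen with earlier results of these data known.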

Additional observations from a re-analysis of the deposited data

How the results depend on the processing

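No paired analysis was possible because the peak lists hold no samples or replicates, and leaving out a replicate was not possible for the same reason. Of 20 alternatives, 1 of them added after seeing the data, 17 left the count within 1.5 times, or the value within its 95% interval. The number of peaks with an opposite-strand partner was 1319, and from 1124 to 1382 with 10 or 50 shared bases required, whole spans in place of blocks, or a deposited false discovery rate of 0.01 or less. Their median fold was from 4.67 to 4.90 and the median ratio of folds from 1.14 to 1.15. With summits within 100 bp of a block the share with a summit moved to 33.1% (26.8% of other peaks), and with only summits at or above the median score to 9.78% (6.71% of other peaks). It stayed above that of other peaks under the 4 alternatives run for it. With the ends of each ID's peaks in place of gene spans, nested pairs moved to 103, against 50, while head-to-head pairs were 76 and tail-to-tail pairs 64, so that nested became the most frequent arrangement. The cause was not tested. Read depth is unknown, and intervals cover counting error only.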
